A study of Mus musculus with 20 samples.

Results

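The epidermal growth factor (EGF) receptor ligands and their receptors are 10 genes of the 55822 in the deposited table, chosen by symbol: the ligand genes Egf, Hbegf, Areg, Ereg, Tgfa, Btc and Epgn, and the receptor genes Egfr, Erbb2 and Erbb3. All 10 symbols were found once each, and 9 of the 10 genes passed the filter on low counts; Epgn did not. The samples are whole kidneys of male C57BL/6J mice aged 8 weeks, from which poly(A) RNA was sequenced in bulk. The 5 control samples came from animals given PBS, and the 5 treated samples from animals given puberulic acid, a tropolone made by some Penicillium moulds, at 1 mg per day. Both received 6 daily administrations, and organs were taken on day 7. The design text describes dosing as oral, whereas the treatment protocol allows either gavage or intraperitoneal injection. The labels do not say that each numbered sample is 1 animal, so that p-values measure the spread between these samples. The series also holds 5 samples for each of the lots, normal and toxic, of the supplement Choleste-Help at 1000 mg per day, not analysed here because the column names do not tell the lots apart.

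The ligands are made as membrane-anchored precursors, and proteases of the ADAM family release the soluble factor. EGF, transforming growth factor alpha (Tgfa), amphiregulin (Areg) and epigen (Epgn) bind the EGF receptor, while HB-EGF (Hbegf), betacellulin (Btc) and epiregulin (Ereg) bind both the EGF receptor and ErbB4. ErbB2 has no known soluble ligand and pairs with the other receptors, and ErbB3, which has little kinase activity, binds neuregulins. In the kidney, Egf mRNA is made mainly by the thick ascending limb and the distal convoluted tubule, from where EGF passes into urine and also stimulates magnesium uptake. HB-EGF, amphiregulin and TGF-alpha are known as ligands that injured epithelia produce.

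Puberulic acid samples had lower Egf and Btc and higher Hbegf, Tgfa, Areg, Ereg and Egfr than controls. Of the 9 genes tested, 5 were called higher and 4 lower by edgeR's quasi-likelihood test with an adjusted p-value under 0.05. Across all 16266 genes tested, 65.3% were called, 34.2% higher and 31.1% lower. With total counts as the only scaling, 5 members were called higher and 2 lower, against 56.4% and 15.5% of all genes tested (72.0% called). For 8 of the 9 genes control and treated ranges were apart, 5 higher and 3 lower, against 50.1% of all genes tested, 26.1% higher and 24.0% lower. These counts include Areg and Ereg, which passed the filter through the treated libraries alone and so had to differ; without them 3 of 7 were called higher and 4 lower, and 6 of 7 ranges were apart, 3 in each direction. The lower values of Erbb2 and Erbb3 and the separation of the Btc ranges depend on library scaling, as described with those genes. Levels are CPM, that is counts scaled to a common library size, after correction by trimmed mean of M-values (TMM) factors unless stated otherwise.

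**Figure D1:**
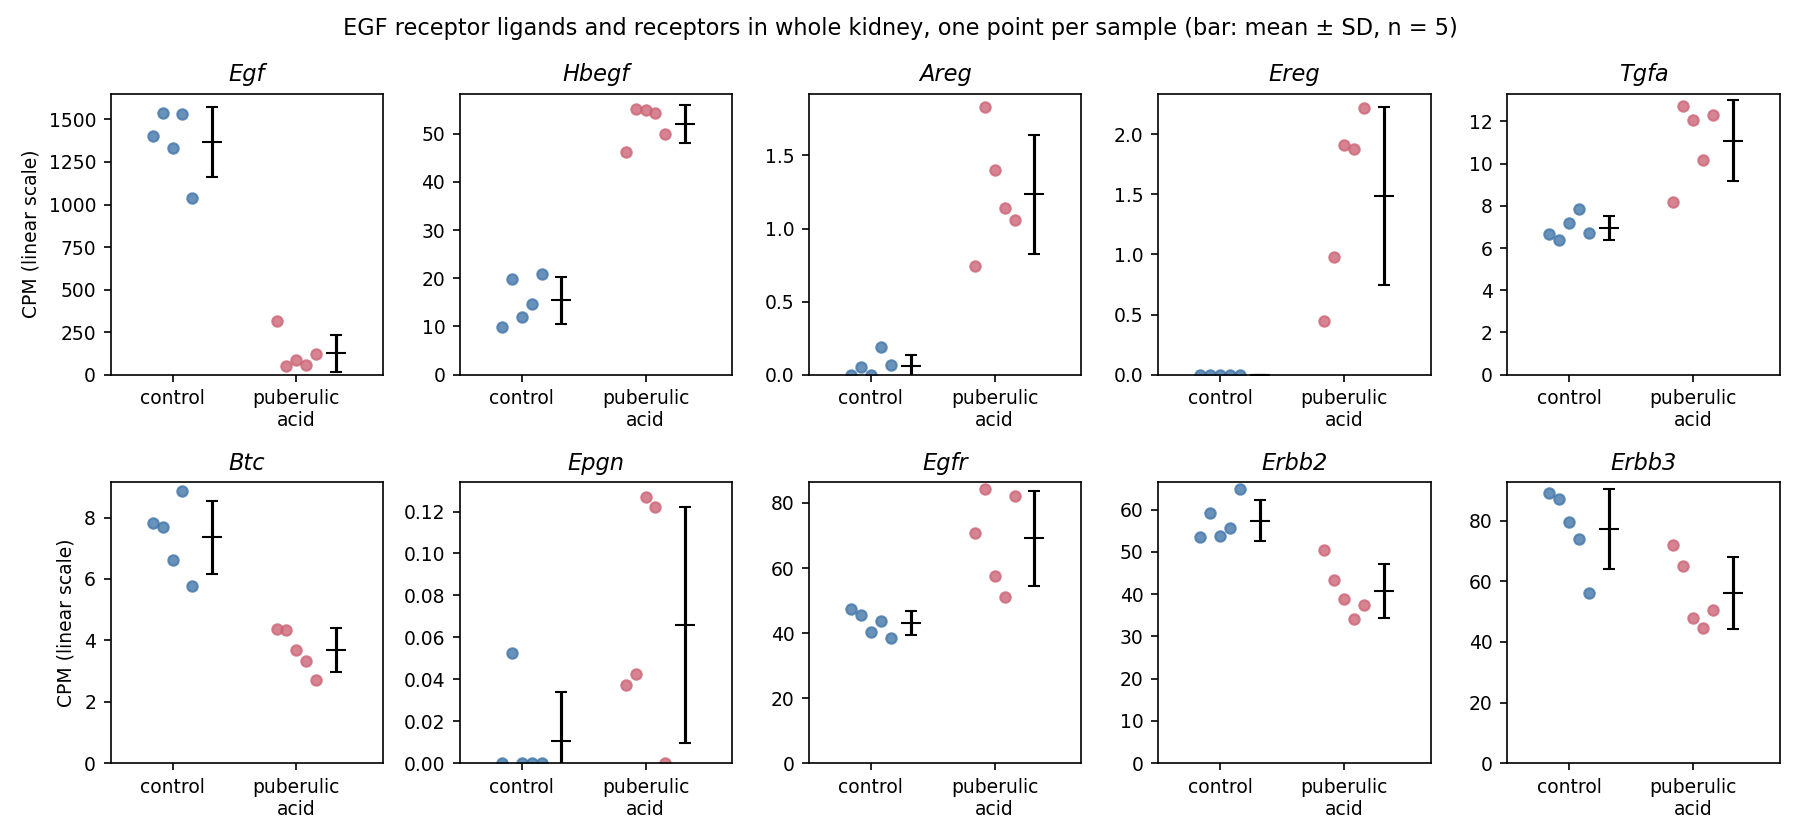
CPM of the 10 genes in each control sample (blue) and each puberulic acid sample (red), on linear axes from 0 that differ between panels, with the mean and SD of each group of 5 as a bar. Egf runs from 1036 to 1538 CPM in controls and from 48.2 to 313 CPM with puberulic acid, while Hbegf runs from 9.82 to 21.0 and from 46.1 to 55.0 CPM.

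Library totals ran from 18409940 to 24705953 estimated counts. Havcr1, the gene of the tubular injury protein KIM-1, was at 1.62 to 2.61 CPM in controls and at 1089 to 1343 CPM with puberulic acid, so that every treated sample lay above every control. Summed levels of markers of other cell types also differed between the groups. Beside the called counts of these lists, all genes tested had 34.2% higher and 31.1% lower, or 56.4% and 15.5% with total counts. The 10 proximal tubule markers, all called lower, summed to 13978 to 18492 CPM in controls and 1219 to 2223 CPM with puberulic acid. Of 7 leukocyte markers tested out of 8, 4 were called higher and none lower. With total counts, or without puberulic acid replicate 1, 6 were called higher and none lower. The list summed to 74.8 to 171 CPM in controls and 142 to 449 CPM with puberulic acid. None of its markers was at 0 in a whole group. The 5 fibroblast and pericyte markers, 4 called higher (5 with total counts), summed to 92.6 to 151 and 323 to 1056 CPM. The part of these shifts in the results on ligands and receptors was not tested. Some libraries stood apart. Puberulic acid replicate 2 had the lowest podocyte sum, 109 CPM, where the other 9 libraries had 227 to 495. It also had the lowest endothelial sum, 82.9 CPM, where those 9 had 128 to 252. Puberulic acid replicate 3 had the highest urothelial sum, 56.6 CPM, where the other 4 of its group had 18.7 to 23.9. In the podocyte list 1 of 5 genes was called lower, in the endothelial list 1 of 5 lower (with total counts 0 lower in each, and 1 podocyte gene higher), in the collecting duct list 5 of 6 lower (3 with total counts) and in the urothelial list 1 of 5 higher. The gene of each list with the highest mean over the 10 samples, a choice that favours genes that rose, had log2 fold changes of -2.85 (Slc27a2, proximal tubule), -1.36 (Aqp2, collecting duct), 4.14 (Col1a1, fibroblast), 2.43 (Lyz2, leukocyte) and 6.07 (Krt5, urothelium), all called, and of -0.20 (Podxl, podocyte) and -0.48 (Emcn, endothelium), neither of which passed the test. Emcn was called lower by DESeq2 (adjusted p = 0.0372), with the replicate block (edgeR adjusted p = 0.0159) and in 4 of 10 fits without a sample, and stood at 0.032 with total counts (adjusted p = 0.902). In controls other genes led some lists: Upk1a (urothelium, log2 fold change 0.63, edgeR adjusted p = 0.397), Csf1r (leukocyte, 0.27, 0.234) and Dcn (fibroblast, 1.24, 0.00196). Krt5 was the least abundant of the 5 urothelial genes in controls, at 0.28 CPM, and passed the filter through the treated libraries alone; the other 4, all uroplakin genes, were not called.

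Promoter windows are printed for Egf, the ligand gene with the largest fall, and for Areg and Btc, neighbours on mouse chromosome 5 that moved in opposite directions. Each is the 300 bases from 250 before to 50 after a RefSeq gene start in GRCm38.p6, 5′ to 3′ on the strand of the gene: chr3:129755273-129755572 (minus) for Egf, chr5:91139349-91139648 (plus) for Areg and chr5:91402945-91403244 (minus) for Btc. Capitals mark matches to 4 motifs searched on both strands: TGACGTCA (cAMP response element), TGANTCA (AP-1), GCGNGGGCG (EGR) and TATAAA (the core promoter box of that name), none of which overlapped another.
Egf: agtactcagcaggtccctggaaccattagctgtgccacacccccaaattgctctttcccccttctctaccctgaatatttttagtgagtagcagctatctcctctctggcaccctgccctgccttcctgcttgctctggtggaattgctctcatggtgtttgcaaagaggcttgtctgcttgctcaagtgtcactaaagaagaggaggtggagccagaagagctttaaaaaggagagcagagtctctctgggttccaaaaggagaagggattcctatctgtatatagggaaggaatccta
Areg: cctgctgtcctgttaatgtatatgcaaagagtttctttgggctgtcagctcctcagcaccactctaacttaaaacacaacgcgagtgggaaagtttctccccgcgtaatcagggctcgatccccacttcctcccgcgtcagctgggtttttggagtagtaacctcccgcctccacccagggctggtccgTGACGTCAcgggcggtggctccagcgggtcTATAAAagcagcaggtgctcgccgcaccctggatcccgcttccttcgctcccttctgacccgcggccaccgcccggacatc
Btc: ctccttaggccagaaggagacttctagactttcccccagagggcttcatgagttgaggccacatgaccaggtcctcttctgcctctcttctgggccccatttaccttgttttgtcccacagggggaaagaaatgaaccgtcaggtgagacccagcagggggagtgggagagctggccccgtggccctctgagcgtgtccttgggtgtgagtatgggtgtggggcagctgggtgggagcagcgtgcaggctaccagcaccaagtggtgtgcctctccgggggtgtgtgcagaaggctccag
The Areg window held TGACGTCA 61 bases and TATAAA 31 bases before the start. Of 32851 RefSeq windows of this length, 1.79% held TGACGTCA, 7.81% TGANTCA, 5.55% GCGNGGGCG and 13.6% TATAAA. Windows were found for 7 of the 10 genes, with 2 for Egf; Hbegf, Ereg and Erbb3 have no entry. Among these 8 windows, those of Areg and Epgn held matches, the latter to TATAAA. No match says only that these letters are not in the window.

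Egf fell most of the tested members. Its levels in control replicates 1 to 5 were 1404, 1538, 1332, 1534 and 1036 CPM. With puberulic acid, replicates 1 to 5 had 313, 48.2, 85.5, 56.0 and 124 CPM. Every treated sample lay below every control, and replicate 1 kept the highest level of the treated group. The mean went from 1369 ± 206 to 125 ± 109 CPM (SD, n = 5 per group), which is 10.9-fold lower, with a log2 fold change of -3.45 ± 0.47 (SE, edgeR adjusted p = 4.96e-05). A log2 fold change this low or lower was found for 0.633% of the genes tested. Without replicate 1, the mean of the controls was 17.4-fold that of the treated samples, and the log2 fold change was -4.15. In whole tissue, fewer cells of a type and less RNA per cell cannot be told apart.

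HB-EGF, the heparin-binding ligand, rose. Hbegf was at 9.82, 19.9, 11.9, 14.7 and 21.0 CPM in control replicates 1 to 5 and at 46.1, 55.0, 54.9, 54.4 and 50.0 CPM in puberulic acid replicates 1 to 5. The treated samples lay close together, above the highest control. The mean rose 3.37-fold, from 15.5 ± 4.87 to 52.1 ± 3.94 CPM (SD, n = 5 per group), with a log2 fold change of 1.75 ± 0.19 (SE, edgeR adjusted p = 6.80e-06).

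Amphiregulin and epiregulin, ligands whose genes lie side by side, went from near 0 to low levels. Areg had 0, 1, 0, 3 and 1 counts in control replicates 1 to 5 and 20, 43, 33, 28 and 33 counts in puberulic acid replicates 1 to 5. Summed over samples and scaled by library size, the ratio was 20.3, with a 95% exact interval of 8.50 to 63.2 that covers counting error only. Ereg had 0 counts in all 5 controls and 12, 23, 45, 46 and 69 counts in puberulic acid replicates 1 to 5. Its mean of 1.48 ± 0.74 CPM (SD, n = 5) was at least 8.23-fold higher than the mean control level that 3 counts per library would give. No p is given for either gene, since both had to differ once they passed the filter. Both genes were above all controls in each treated sample, though Ereg reached only 0.445 to 2.22 CPM. Fewer than 5 libraries reached 1 CPM of either gene, so a filter that asks for 5 left both untested.

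TGF-alpha rose less. Tgfa was at 6.68, 6.38, 7.19, 7.85 and 6.69 CPM in control replicates 1 to 5 and at 8.20, 12.7, 12.1, 10.1 and 12.3 CPM in puberulic acid replicates 1 to 5. Replicate 1 lay just above the highest control and the other 4 well above it. The mean rose 1.59-fold, with a log2 fold change of 0.67 ± 0.14 (SE, edgeR adjusted p = 0.00143), and a log2 fold change this high or higher was found for 26.2% of the genes tested.

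Btc, the betacellulin gene, fell. It was at 7.82, 7.70, 6.62, 8.85 and 5.78 CPM in control replicates 1 to 5 and at 4.38, 4.34, 3.69, 3.34 and 2.70 CPM in puberulic acid replicates 1 to 5. With TMM factors all treated samples lay below the lowest control. Per total counts the ranges overlapped: control replicate 5 had 89 of 18409940 counts and puberulic acid replicate 1 had 118 of 22967595. The log2 fold change was -1.0 ± 0.18 (SE, edgeR adjusted p = 0.000460). Scaling by total counts moved the median log2 fold change of all genes tested from 0.05 to 0.56, and that of Btc to -0.49 (adjusted p = 0.0258). In the RefSeq gene order of GRCm38.p6, the ligand genes Epgn, Ereg, Areg and Btc are the 4 protein-coding genes of one stretch of chromosome 5 with no other between them. Within that stretch Ereg and Areg rose, Btc fell, and Epgn was near the limit of detection. Epgn, the epigen gene, had 0, 1, 0, 0 and 0 counts in the controls and 1, 1, 3, 3 and 0 counts with puberulic acid, at or under 3 counts in every library, so no fold is given.

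The makeup of the ligand mRNA was then compared. Expressed per kilobase of the longest coding transcript in GENCODE M21, the level of Egf in controls was 287.5 ± 43.2 CPM per kb (SD, n = 5), above every other member: Erbb3 at 12.8 ± 2.19, Erbb2 at 11.5 ± 0.96, Hbegf at 6.51 ± 2.05, Egfr at 4.22 ± 0.36, Btc at 2.56 ± 0.41 and Tgfa at 1.54 ± 0.13. The ranges of Erbb3 and Erbb2 overlapped, as did those of Hbegf and Egfr, while other neighbours in this order were apart. With puberulic acid, Egf was at 26.3 ± 22.9 and Hbegf at 21.9 ± 1.66 CPM per kb (SD, n = 5), with overlapping ranges. Without replicate 1, Egf was at 16.5 ± 7.24 and Hbegf at 22.6 ± 1.0 CPM per kb (SD, n = 4). With the median transcript length the means without replicate 1 were 23.5 and 22.6 CPM per kb, so no order of these means is given. Erbb3 followed at 9.32 ± 1.97, Erbb2 at 8.14 ± 1.27 and Egfr at 6.77 ± 1.43 CPM per kb, overlapping one another but not Hbegf. Tgfa was at 2.45 ± 0.42, Btc at 1.28 ± 0.25, Areg at 1.02 ± 0.34 and Ereg at 0.36 ± 0.18 CPM per kb, with the ranges of Btc and Areg overlapping. Some places depend on which transcripts are used. With the median length of the coding transcripts the mean of Egfr was second among the members in both groups. The mean of Tgfa lay above that of Btc in controls (2.82 and 2.56 CPM per kb). At that length the ranges of Egfr and Erbb3 and of Tgfa and Btc overlapped in controls, as did those of Egfr and Hbegf with puberulic acid. Without replicate 1 the treated means of Egf, Egfr and Hbegf were 23.5, 23.3 and 22.6 CPM per kb, so Egfr is not ranked among them.

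Egf made up 96.3% ± 1.03 (SD, n = 5) of the summed per-length level of the 7 ligands in controls and 43.5% ± 19.2 with puberulic acid. The share of Hbegf was 2.26% ± 0.97 in controls and 45.7% ± 15.3 with puberulic acid, and that of Tgfa 0.52% ± 0.08 and 5.15% ± 1.89 (SD, n = 5 per group). Hbegf exceeded Egf in 3 of the 5 treated samples, replicates 2, 3 and 4, and in 2 of 5 when the median transcript length was used. The summed level of all 7 ligands was 298 ± 43.0 CPM per kb in controls and 53.4 ± 20.7 with puberulic acid, while the sum of the 6 ligands other than Egf was 10.7 ± 1.95 and 27.1 ± 2.34 CPM per kb (SD, n = 5 per group). These shares do not depend on library scaling and are given without a test.

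**Figure D2:**
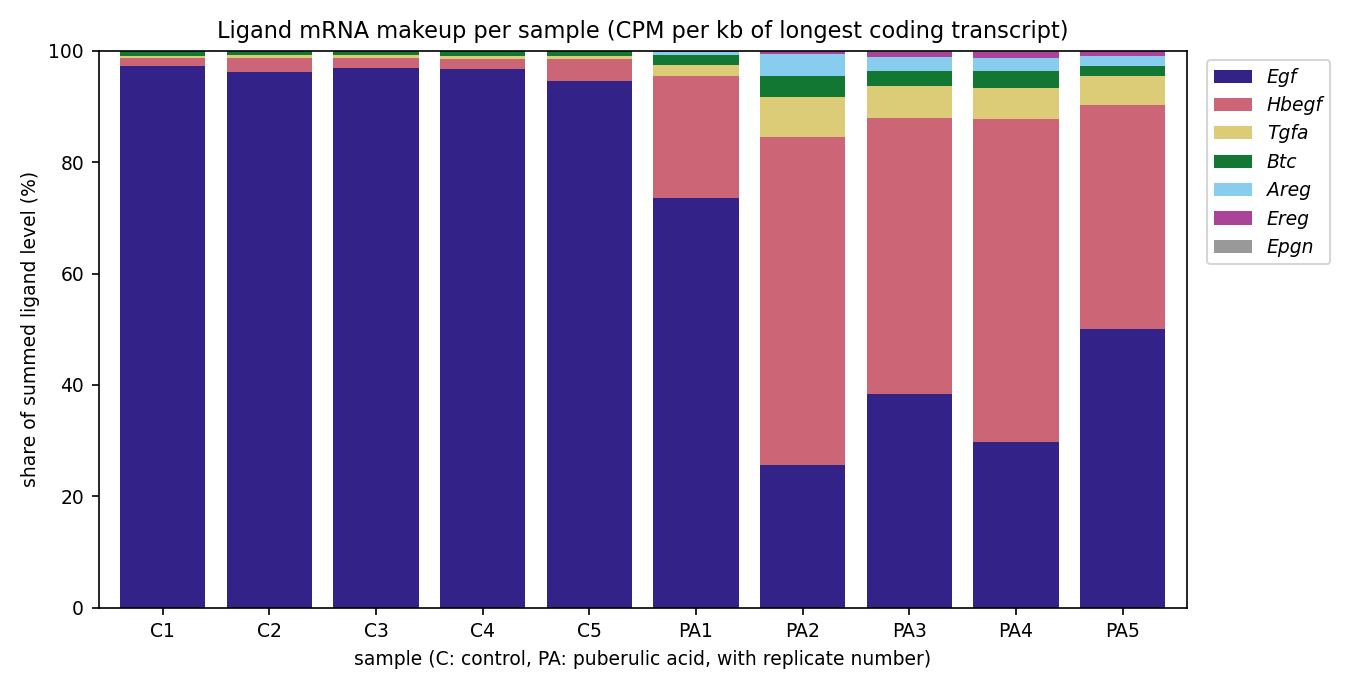
Share of each ligand gene in the summed CPM per kb of the 7 ligands, stacked to 100% for each control (C1 to C5) and puberulic acid (PA1 to PA5) sample. Egf takes 94.6% to 97.3% in the controls and 25.7% to 73.7% with puberulic acid, with PA1 the highest of the treated samples.

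Among the receptor genes, Egfr rose. It was at 47.4, 45.6, 40.4, 43.7 and 38.6 CPM in control replicates 1 to 5 and at 70.7, 84.2, 57.6, 51.0 and 82.0 CPM in puberulic acid replicates 1 to 5. The groups did not overlap, and the treated samples were more spread than the controls. The mean rose 1.60-fold, with a log2 fold change of 0.68 ± 0.14 (SE, edgeR adjusted p = 0.000953).

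Erbb2 and Erbb3 were called lower with TMM factors but not with total-count scaling. Erbb2 was at 53.5 to 65.0 CPM in controls and 34.0 to 50.4 CPM with puberulic acid, a log2 fold change of -0.49 ± 0.11 (SE, edgeR adjusted p = 0.00180). Erbb3 was at 89.2, 87.2, 79.6, 74.1 and 56.3 CPM in controls and 72.0, 65.1, 47.9, 44.7 and 50.4 CPM with puberulic acid, with overlapping ranges and a log2 fold change of -0.46 ± 0.16 (SE, edgeR adjusted p = 0.0216). Scaled to total counts, their log2 fold changes were 0.015 (adjusted p = 0.910) and 0.045 (adjusted p = 0.806), so no direction is assigned to either gene. Under that scaling Egf was at -2.94, Hbegf at 2.26, Tgfa at 1.18 and Egfr at 1.19, each called in the same direction as with TMM factors.

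**Figure D3:**
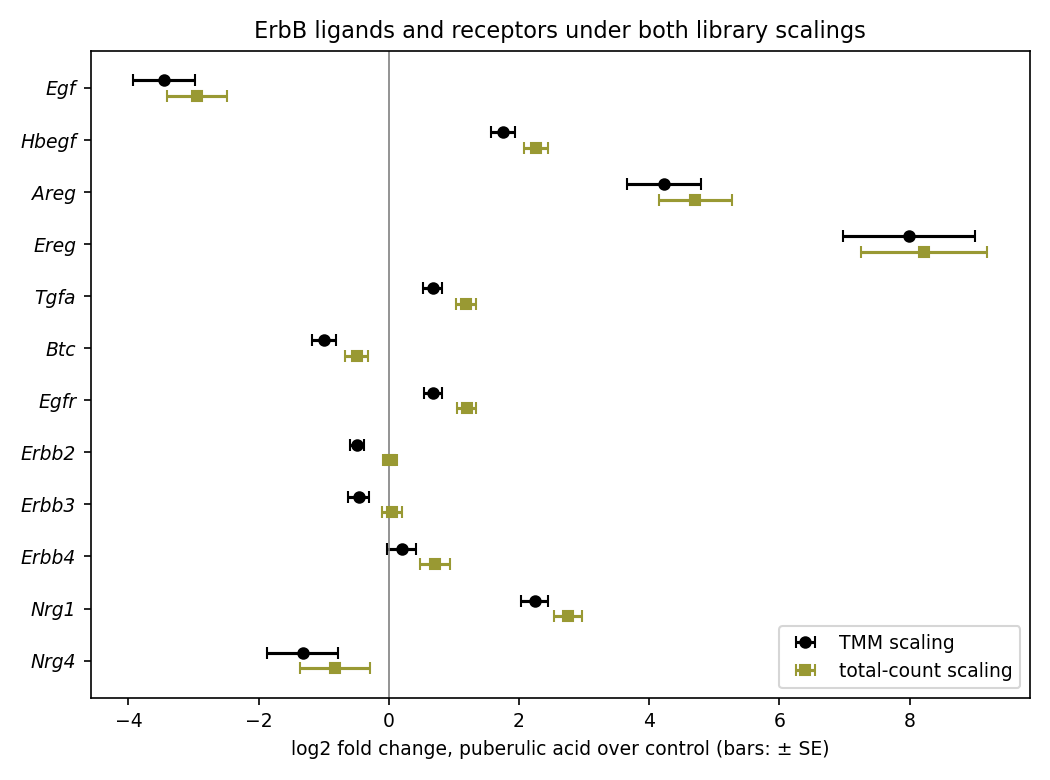
Log2 fold change of puberulic acid over control with its SE for the 9 tested members, Erbb4, Nrg1 and Nrg4, with TMM scaling (black circles) and total-count scaling (olive squares). Erbb2 and Erbb3 lie at -0.49 and -0.46 with TMM and at 0.015 and 0.045 with total counts; the fitted values of Areg and Ereg rest on 0 to 3 control counts per library and are no measure of fold.

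The remaining ErbB genes were read from the same fit. Nrg1, the gene of a neuregulin that binds ErbB3 and ErbB4, was at 5.82, 7.12, 9.48, 3.61 and 8.31 CPM in control replicates 1 to 5 and at 30.6, 35.1, 28.1, 33.4 and 34.8 CPM in puberulic acid replicates 1 to 5. It rose 4.72-fold without overlap, with a log2 fold change of 2.24 ± 0.21 (SE, edgeR adjusted p = 2.32e-06). Erbb4 was at 14.0 ± 3.25 and 16.1 ± 5.47 CPM (SD, n = 5 per group), a log2 fold change of 0.20 ± 0.23 (SE, edgeR adjusted p = 0.458), and its sign turned to -0.046 without puberulic acid replicate 1. With total-count scaling Erbb4 was at 0.71 (adjusted p = 0.0138). Nrg4 was at 1.36 to 2.68 CPM in controls and at 0.260, 0.426, 2.33, 0.652 and 0.321 CPM with puberulic acid (log2 fold change -1.32). It had 7 to 55 counts in the treated libraries and passed the filter through the controls, where it is high; its call (edgeR adjusted p = 0.0490) is not counted as support and was lost in 9 of the 10 fits that left out a sample and with total-count scaling (-0.82, adjusted p = 0.185). Replicate 3, which kept the control level of Nrg4, is also the library with the high urothelial sum; whether these are linked was not tested. Nrg2 had 1 to 6 counts in every library except puberulic acid replicate 1, which had 120, and Nrg3 had 0 counts in all 10; neither was tested.

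Within the treated group, replicate 1 was the sample nearest to the control mean for 8 of the 9 tested members, all but Egfr. It had the lowest Hbegf, Areg, Ereg and Tgfa and the highest Egf, Btc, Erbb2 and Erbb3 of the 5. In the fit without it, Egf, Hbegf, Tgfa, Btc, Egfr, Erbb2 and Erbb3 kept their calls with TMM factors. Areg and Ereg had to differ once they passed the filter, so their calls are not counted here. Replicate 1 also stood apart in marker sums. Its sum over the thick ascending limb and distal convoluted tubule list was 6603 CPM, above every control, against 3307 to 4239 CPM in the other 4. Umod alone gave 4719 CPM of that sum. In replicate 1 Umod, Slc12a1, Slc12a3 and Trpm6 lay above their control means, and Cldn16, Kcnj1, Pvalb, Calb1 and Wnk4 below. The proximal tubule sum of replicate 1 was 2223 against 1219 to 1345 CPM, and its collecting duct sum 322 against 180 to 212 CPM. Its fibroblast and pericyte sum was 323 against 421 to 1056 CPM and its leukocyte sum 142 against 264 to 449 CPM. Their part in the values of replicate 1 was not tested. By the root mean square difference of log2(CPM + 1) from each gene's control mean over the 10 samples, the genes most like Egf among 13906 named genes were Hlf, a transcription factor gene, Ak4, a mitochondrial adenylate kinase gene, and Acmsd, of tryptophan breakdown (differences of 0.33, 0.34 and 0.35, log2 fold changes of -3.52, -3.65 and -3.36). Without puberulic acid replicate 1 these fold changes were -3.99, -4.13 and -4.31. Those most like Hbegf were Rad18, Rell1 and Slc35e4 (0.20 each). For Egfr they were Slc39a9, Kdm5a and Desi2 (0.098 to 0.15), for Btc Gkap1, Mrpl44 and Tmem102 (0.14 to 0.15) and for Tgfa Atp8b5, Dbr1 and Polb (0.097 to 0.11). Erbb2 was nearest to Tmem201, Ulk1 and Cxxc5 (0.066 to 0.086) and Erbb3 to Copg2, Gucd1 and Slc25a12 (0.081 to 0.12). For Areg (Ncs1, Nr2c2ap and Krtap4-9) and Ereg (B3gnt9, Tpm1 and Ltb), values near 0 CPM make the measure insensitive. The 1 added to CPM also weighs on Rad18 and Atp8b5, at 1.45 and 0.78 CPM in controls. Rad18 had a log2 fold change of 2.47 against 1.75 for Hbegf, and Atp8b5 1.20 against 0.67 for Tgfa.

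Genes of the segments that make Egf mRNA had unequal changes. Of 9 markers of the thick ascending limb and distal convoluted tubule, 6 were called lower, none higher, and the median log2 fold change was -0.97 against 0.05 for all genes tested. The 6 of 9 called lie near the 65.3% of all genes tested, of which 31.1% were lower. With total counts the same list had 3 called higher and 3 lower, against 56.4% and 15.5%. The 3 lowest log2 fold changes were those of Pvalb, the parvalbumin gene of the early distal convoluted tubule, from 26.1 ± 7.19 to 1.42 ± 2.03 CPM, of Calb1, the calbindin gene, from 456 ± 99.5 to 120 ± 99.2 CPM, and of the kinase gene Wnk4, from 145 ± 17.5 to 62.5 ± 7.35 CPM (SD, n = 5 per group). Their log2 fold changes were -4.18, -1.93 and -1.22 (edgeR adjusted p = 0.00146 for Calb1 and 1.52e-06 for Wnk4). Pvalb had 6 to 136 counts with puberulic acid and passed the filter through the controls, where it is high, so its p is not given and its place in the count of 6 is no support. Umod, the uromodulin gene of the thick ascending limb, was at 3335 ± 705 and 3476 ± 733 CPM (SD, n = 5 per group; log2 fold change 0.06 ± 0.18, SE, edgeR adjusted p = 0.782). With total counts Umod was at 0.57 (edgeR adjusted p = 0.0119), and without puberulic acid replicate 1 at -0.097. Without replicate 1 the log2 fold changes were -5.68 for Pvalb, -2.60 for Calb1 and -1.20 for Wnk4. Slc12a1, at -1.20 in all samples (edgeR adjusted p = 0.0333), was at -1.89 without replicate 1, below Wnk4, and lost its call with total counts and in 7 of the 10 fits that left out a sample.

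**Figure D4:**
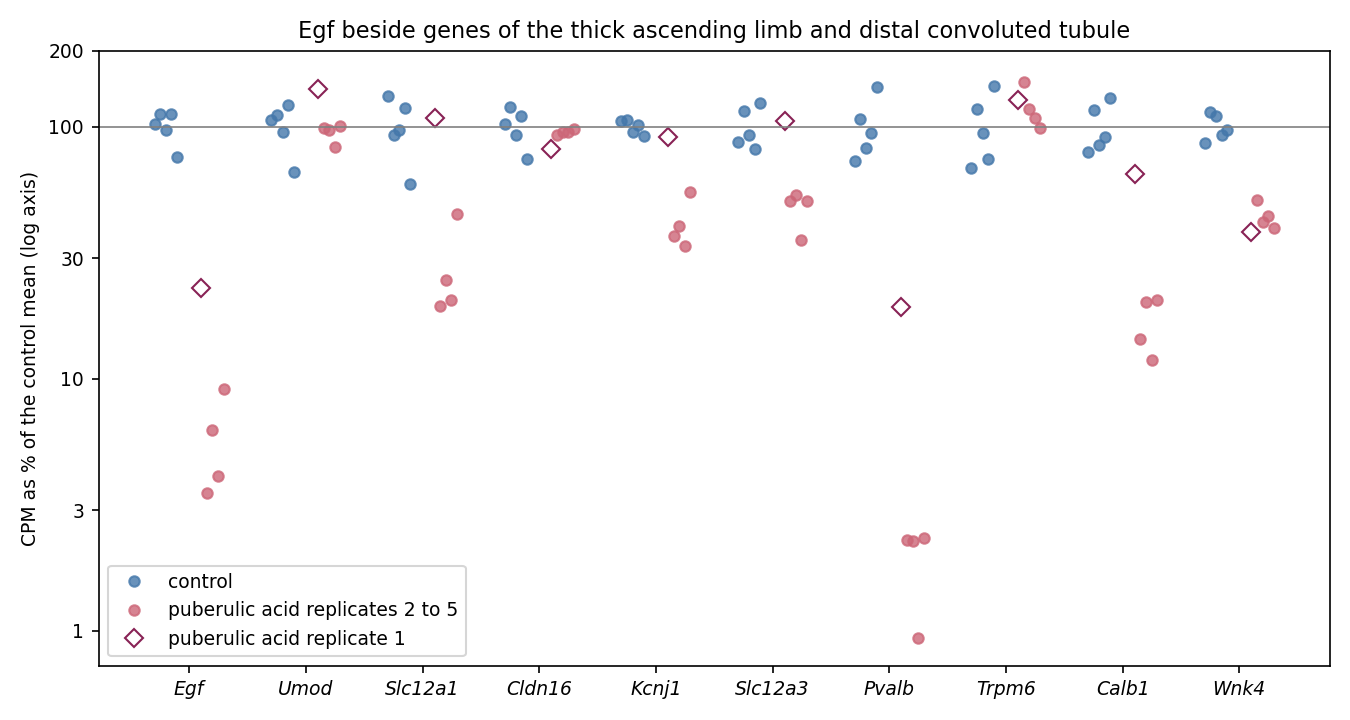
CPM of Egf and the 9 segment markers as a percent of the control mean, on a log axis, for controls (blue), puberulic acid replicates 2 to 5 (red) and replicate 1 (open diamond). Egf lies at 3.52% to 9.08% in replicates 2 to 5 and 22.8% in replicate 1, and Umod at 82.9% to 101% and 142%.

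The ratio of Egf to each of the 9 markers within a library is free of scaling. It restates the values above, and is given as a description with no test. The log2 ratio of Egf to Umod was -1.27 ± 0.12 in controls and -5.13 ± 0.84 with puberulic acid (SD, n = 5 per group), a difference of -3.86. Relative to Slc12a3, the gene of the thiazide-sensitive cotransporter of the distal convoluted tubule, the difference for Egf was -2.96, and relative to Slc12a1, that of the furosemide-sensitive cotransporter of the thick ascending limb, -2.30. Over 8 of the 9 markers the differences ran from -1.60 (Calb1) to -4.10 (Trpm6), with the ranges of the groups apart. Against Pvalb the difference was 1.26 in the other direction, with overlapping ranges.

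Magnesium handling genes were counted because EGF acts on that pathway. Of 9 tested out of 10, 5 were called lower and 1 higher, with a median of -0.92, and with total counts 5 lower and 3 higher. The 6 of 9 called lie near the 65.3% of all genes tested. By direction, all genes tested had 31.1% lower and 34.2% higher, or 15.5% and 56.4% with total counts. Pcbd1, which encodes a pterin dehydratase that is also a transcriptional coactivator, was at -1.74 and the distal magnesium regulator Cnnm2 at -1.21 on the log2 fold change scale, both called by edgeR (adjusted p = 8.44e-07 and 7.94e-07). Slc41a3, a magnesium transporter gene, was at 0.52 (adjusted p = 0.0306), a call that 10 of the alternatives did not make, among them the replicate block. Trpm6, the apical magnesium channel gene that EGF is known to stimulate, was at 12.6 ± 4.02 and 15.2 ± 2.51 CPM (SD, n = 5 per group), with a log2 fold change of 0.27 that did not pass the test (edgeR adjusted p = 0.266), and at 0.77 with total counts (edgeR adjusted p = 0.00446).

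Of 8 genes for the release of ligands, 5 were called higher and 2 lower (6 and 1 with total counts), with a median log2 fold change of 0.50. Over all genes tested the shares were 34.2% higher and 31.1% lower (56.4% and 15.5% with total counts). Adam12, a sheddase gene, rose from 2.09 ± 0.72 to 10.7 ± 4.32 CPM, and Rhbdf2, whose product iRhom2 brings ADAM17 to the cell surface, from 8.47 ± 0.89 to 27.2 ± 2.15 CPM (SD, n = 5 per group). Frmd8, which stabilizes the iRhom complex, rose by 0.56 on the log2 scale. Timp3, the inhibitor of ADAM17, fell from 1735 ± 200 to 509 ± 127 CPM (SD, n = 5 per group), with a log2 fold change of -1.77 ± 0.16 (SE, edgeR adjusted p = 2.09e-06). Every treated sample had less Timp3 than every control, from 404 to 694 CPM against 1430 to 1981 CPM. Adam9 was at -0.60 with TMM factors (adjusted p = 0.000441) and at -0.083 with total counts (adjusted p = 0.521).

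Inhibitors of the receptor and of the MAP kinase pathway were called higher for 12 of 16 genes and lower for 1 (14 and 0 with total counts), with a median log2 fold change of 0.60. The share higher over all genes tested was 34.2% (56.4% with total counts). The ERK phosphatase genes Dusp5 and Dusp4 had log2 fold changes of 3.51 and 2.26, and Cbl, the ubiquitin ligase gene that marks the receptor for degradation, 1.08 (edgeR adjusted p = 8.66e-08, 2.29e-07 and 4.72e-07). Dusp5 was at 1.43 to 3.12 CPM in controls and 21.0 to 34.4 CPM with puberulic acid. Errfi1, whose product MIG6 binds and inhibits the EGF receptor, was the gene called lower, at -0.61 (adjusted p = 0.000282), but stood at -0.098 with total counts (adjusted p = 0.437).

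Adaptor and kinase genes were mixed: 11 of 22 were called higher and 8 lower, or 15 and 2 with total counts, with a median of 0.29. These shift as the shares of all genes do, from 34.2% higher and 31.1% lower to 56.4% and 15.5%. Nras, Pik3r1 and Stat3 rose by 1.90, 1.33 and 1.31 on the log2 scale. Map2k2, Araf and Gab1 were at -1.17, -0.73 and -0.71, and Gab1 was at -0.20 with total counts (edgeR adjusted p = 0.213). Map2k2 and Araf remained called lower with it.

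Growth factor response genes had the highest list median, 2.83, with 14 of 17 called higher and 1 lower (16 and 0 with total counts), where all genes tested had 34.2% higher and 31.1% lower (56.4% and 15.5%). Fosl1, which encodes the AP-1 subunit FRA1, had 0, 0, 0, 1 and 3 counts in controls and reached 56.9 to 71.2 CPM with puberulic acid. Fosb, of another AP-1 subunit, was at 0.17 ± 0.19 and 8.43 ± 0.91 CPM (SD, n = 5 per group). The list includes genes, Fosl1 and Fosb among them, that passed the filter through the treated libraries alone and so had to differ; its count and median are a description. Plaur, the urokinase receptor gene, rose from 4.15 ± 1.13 to 99.5 ± 12.5 CPM (SD, n = 5 per group). Etv5, an ETS factor gene, was at -0.52 with TMM factors (adjusted p = 0.000978) and at -0.014 with total counts (adjusted p = 0.918). Many stimuli besides EGF receptor ligands induce genes of this list, and receptor protein or phosphorylation was not measured.

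**Figure D5:**
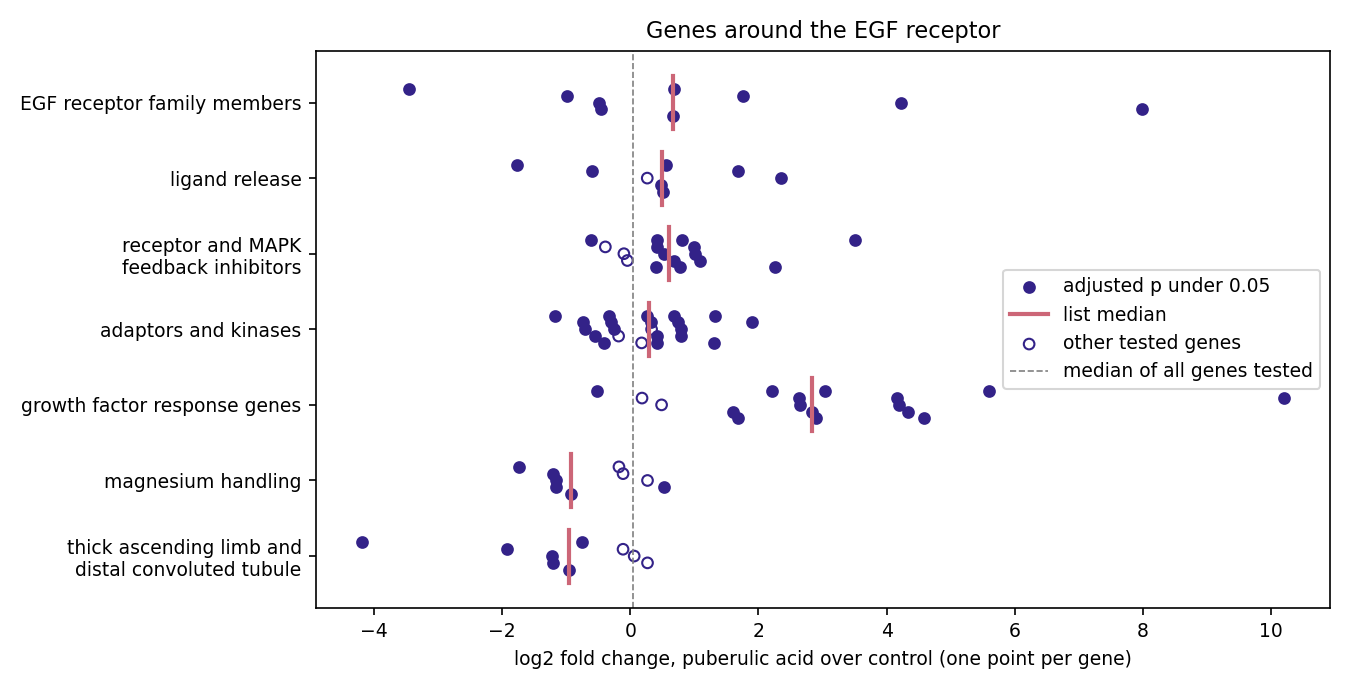
Log2 fold change with TMM factors of each tested gene in 7 lists (1 point per gene; filled where the adjusted p-value is under 0.05), with the list median as a bar and the median of all genes tested, 0.05, as a dashed line. The growth factor response list has the highest median, 2.83, and the list of the thick ascending limb and distal convoluted tubule the lowest, -0.97.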

How the data were processed

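Whole-kidney poly(A) libraries were made with a directional kit, per the labels' protocols. The authors deposited estimated counts for each gene, with decimals; the submitters' processing notes name Salmon 1.10.3, fastp 0.22.0 and the build GRCm39 with no role or order, and the annotation is not given in the sources used here. Columns were assigned by name; 10 sample columns whose names do not show the supplement lot were not used. Symbols were matched for 51344 of 55822 identifiers. Counts were rounded, filtered with filterByExpr, scaled with TMM factors and tested with edgeR 4.0.16 (glmQLFit and glmQLFTest, group only, 5 against 5) in R 4.3.3, with Benjamini-Hochberg adjustment over 16266 genes and a threshold of 0.05. The standard error is the log2 fold change over the square root of F. The floor of 3 counts was 0.158 to 0.195 CPM in control and 0.0964 to 0.128 CPM in puberulic acid libraries, and covers counting error only. Replicate libraries differed by more than sampling noise (chi-square per degree of freedom 12.7 to 89.7). No sequencing batch is labelled.

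The members and lists were chosen with earlier results of these data known; the motifs were chosen after the values were seen. Named genes were the members, the other ErbB genes, up to 3 called genes per direction and pathway list, by size of change, the most abundant gene per marker list, Havcr1, and the 3 genes most like each tested member; Umod, Slc12a1, Slc12a3, Trpm6, Csf1r, Dcn and Upk1a were added after their values were seen. One gene that the rule names is not reported here. Promoter windows are from RefSeq (GRCm38.p6) and transcript lengths from GENCODE M21, a build other than that of the counts. Alternatives were RLE and total-count scaling, a stricter filter (at least 1 CPM in 5 or more samples), no filter, DESeq2 1.42.0, a replicate block, and the omission of each sample.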

Additional observations from a re-analysis of the deposited data

Results flagged for a closer look

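For the genes that the text or the naming rule picks, the highest and lowest CPM among the 5 samples of a group were checked for isolation, meaning a distance from the next sample above 0.71 of the whole range. Among 162 such checks, 16 found one, where chance gives about 8.1 if values were independent, which those of related genes are not. Puberulic acid replicate 1 accounted for 9: it had the highest Egf (313 CPM), Slc12a1 (779 CPM), Slc12a3 (522 CPM), Pvalb (5.05 CPM), Calb1 (295 CPM), Pcbd1 (111 CPM), Nrg2 (4.45 CPM), Ak4 (84.8 CPM) and Acmsd (28.6 CPM) of its group; Ak4 and Acmsd were named for their likeness to Egf over these samples. Puberulic acid replicate 3 had the highest Nrg4 (2.33 CPM) and Upk1a (10.3 CPM), and replicate 4 the lowest Etv5 (15.5 CPM, next to 16.6 CPM). Among controls, replicate 1 had the highest Stat3 (83.3 CPM), replicate 4 the highest Fosb (0.499 CPM) and Lyz2 (64.4 CPM), and replicate 2 the highest Epgn, at 1 count (0.0527 CPM).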

How the results depend on the processing

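The number of genes called ran from 9960 to 11844 over the alternatives that kept all samples and from 10104 to 11108 without one sample, against 10622. Total-count scaling called 9179 genes higher and 2526 lower, or 78.4% higher against 52.4%; it called 2 in place of 4 members lower, and 24 in place of 41 genes of the pathway and marker lists lower. The filter of 1 CPM in at least 5 samples left 3 in place of 5 members called higher, because Areg and Ereg were not tested. Total-count scaling turned the sign of Erbb2 (0.015), Erbb3 (0.045), Podxl (0.32), Emcn (0.032), Ulk1 (0.051), Copg2 (0.076), Gucd1 (0.0099) and Slc25a12 (0.15). Leaving out one sample gave -0.046 (without puberulic acid replicate 1) to 0.31 for Erbb4 and -0.42 to 0.011 (without puberulic acid replicate 2) for Podxl, -0.097 (without puberulic acid replicate 1) to 0.13 for Umod, also below 0 without control replicate 5 (-0.068), and -0.43 (without puberulic acid replicate 3) to 0.85 for Upk1a. Egf, Hbegf, Tgfa, Btc and Egfr kept their direction and call in every alternative that tested them, with log2 fold changes of -4.15 to -2.94 for Egf, 1.61 to 2.26 for Hbegf, 0.60 to 1.18 for Tgfa, -1.09 to -0.49 for Btc and 0.58 to 1.19 for Egfr. Same-numbered samples share only a number: their deviations from the group means correlated at -0.172 to 0.039. A replicate block gave 10325 called genes (10111 in common with the fit without it), and the members' calls were the same. Depth limits Epgn and Nrg3, with at most 3 counts in any library, Areg and Ereg, with at most 3 in any control, and Nrg2, with at most 6 outside puberulic acid replicate 1.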
